A study of Homo sapiens with 26 samples.

Results

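Glycolysis and the tricarboxylic acid (TCA) cycle were followed through 43 named genes, taken by row name from the 2 input RNA files of a melanoma cell line. Of these, 42 had a row among the 55353 gene rows, and 41 had at least 50 counts over both libraries. Pc, for pyruvate carboxylase, had no row of that name. The row Pcx, an older mouse symbol of the same gene, is given beside the others and is not counted among them. Aldoc, for aldolase C, had 3 counts in each library and was not measured. The members were 20 genes of glucose uptake, glycolysis and lactate handling, 7 of pyruvate entry into mitochondria, 15 of the TCA cycle with its cytosolic isoenzymes, and Pck2.

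The cells were SK-MEL-28, a human melanoma line, kept in salubrinal for 72 h or left untreated. Salubrinal keeps phosphate on eIF2α, a factor needed to start translation, which is the switch of the integrated stress response (ISR). All 26 samples came from lysates made after cycloheximide, per the labels: 2 input samples, 1 per treatment, and 24 fractions of a sucrose gradient (40S, 60S, 80S and polysome), each fraction in 3 replicates with salubrinal and 3 without. A cell-line field of the labels holds other numbered names in place of SK-MEL-28 for all samples but one, and the titles were followed.

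Glycolysis splits glucose into pyruvate in the cytosol, and lactate dehydrogenase and the monocarboxylate transporters dispose of pyruvate as lactate. Pyruvate that enters mitochondria is oxidised to acetyl-CoA by the pyruvate dehydrogenase complex, which the pyruvate dehydrogenase kinases switch off, or is carboxylated to oxaloacetate. The TCA cycle then oxidises acetyl-CoA, and the mitochondrial carboxykinase PCK2 turns oxaloacetate back into phosphoenolpyruvate. Melanoma cells are known for high rates of lactate production, and PCK2 is known as a target of ATF4, the transcription factor of the ISR.

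The input files held 10245548 counts on gene rows with salubrinal and 12068784 in the control. There was 1 library per treatment, so no test was made. Levels are CPM, each gene's count relative to library size, scaled by trimmed means (TMM). A log2 ratio is salubrinal over control with a prior count of 2. Each interval is an exact binomial one at 95% and covers counting error only. Levels are relative to the library, so less RNA of a gene per cell and fewer cells that make it cannot be told apart. The rows carry mouse-style symbols although the cells are human, and no source used here names the reference behind them. Some names, such as Gm42418 and Tpi-rs2, are not human symbols in another case. Whether reads of these human cells were counted on mouse gene positions was not tested. A low count, a level or a ratio on such rows may therefore reflect the row and not the human gene. Of 7 melanocyte markers 5 were measured. Of these, 4 were at least 2-fold lower with salubrinal (Pmel at a log2 ratio of -1.02, Mitf at -1.01, Sox10 at -1.46 and Dct at -2.37), and Tyr stood at -0.04. Mlana had 0 counts in both libraries, and Tyrp1 had 0 with salubrinal and 5 in the control. The 7 markers of blood, endothelial, epithelial and fibroblast cells had 0 to 43 counts per library. The part of these shifts in the results on metabolic genes was not tested. The ISR targets Asns and Trib3 were higher with salubrinal, at log2 ratios of 3.20 and 2.26.

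With TMM scaling, most enzymes of central carbon metabolism differed little between the 2 input libraries, as did most rows. Of the 41 measured members, 34 were within 1.5-fold, as were 8158 of all 10614 rows. With total gene-row counts 10 of the 41 members were at least 2-fold apart. The counts of members past 2-fold and 1.5-fold that follow are with TMM. Pck2 alone was at least 2-fold higher with salubrinal, where 2.75% of 10614 rows were, and 0 members were at least 2-fold lower, where 3.8% of rows were. At 1.5-fold, 2 members were higher (Pck2 and Idh1; 11.0% of all rows were) and 5 were lower (Pfkp, Aldoa, Pfkl, Dlat and Ogdh; 12.1% of all rows were). These counts of members are near or below what the same shares of 41 rows would give. The median log2 ratio was -0.12 for the 19 measured genes of glycolysis, -0.19 for the 6 of pyruvate entry and -0.23 for the 15 of the TCA cycle, against 0.02 for all rows. Below 0 lay 14 of the 19 genes of glycolysis, 5 of the 6 of pyruvate entry and 11 of the 15 of the TCA cycle, against 48.0% of all rows. These signs rest on the scaling: with total gene-row counts in place of TMM the median of all rows moved by 0.93 and the class medians were 0.82, 0.74 and 0.71, each still below the median of all rows, then 0.95. By summed counts the order differed: glycolysis stood at -0.17 (-0.19 to -0.15), pyruvate entry at -0.18 (-0.25 to -0.11) and the TCA cycle at -0.02 (-0.05 to 0.02). Idh1 held 4985 of the 16920 TCA cycle counts with salubrinal and 1991 of 10512 in the control. Without it the TCA cycle stood at -0.22 (-0.26 to -0.18). Single genes weighed on the glycolysis sum too. Pkm, at 0.10, held 12155 of its 40811 counts with salubrinal and 6963 of 28203 in the control. Aldoa, at -0.70, held 5592 with salubrinal and 5576 in the control. The glycolysis sum was not made without these genes, so -0.17 need not be a shift of the whole class. The ribosomal RNA row CT010467.1 alone held 1308224 counts with salubrinal and 6839261 in the control.

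**Figure D1:**
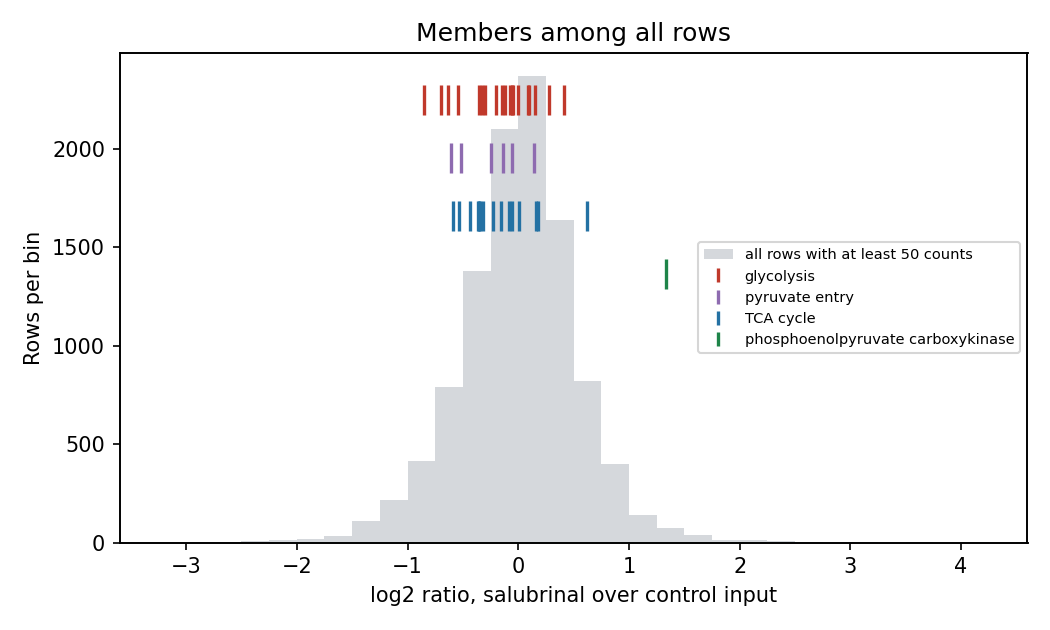
Histogram of log2 ratios, salubrinal over control input (x axis), for 10614 rows with at least 50 counts (grey bars, rows per bin on the y axis), with a tick for each of the 41 measured members, in 1 line per class. The members lie within the bulk of the rows, and Pck2 at 1.33 stands to the right of the others.

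Pck2 had 857 counts (60.4 CPM) with salubrinal and 208 counts (23.9 CPM) in the control, a log2 ratio of 1.33 (interval 1.12 to 1.56). It was above 98.8% of all measured rows. Idh1, the cytosolic NADP-dependent isocitrate dehydrogenase that supplies NADPH, came next with 4985 counts (351 CPM) with salubrinal and 1991 counts (229 CPM) in the control, a log2 ratio of 0.62 (0.54 to 0.69). Pck1, the cytosolic carboxykinase, is no member and was named after its values were seen. It had 36 counts with salubrinal and 8 in the control, under the minimum of 50. In the human RefSeq annotation 22 of the 43 members share part of their span with another gene, among them PCK2 with NRL, DLAT with PIH1D2, PFKM with SENP1, TPI1 with SPSB2, IDH3G with SSR4 and MDH1 with WDPCP. Whether this holds in the reference behind the input rows is unknown, as is the strand setting, so reads of such neighbours may not be told apart. Under total gene-row counts Pck2 stood at 2.27, and relative to the median of all rows it stood at 1.31 with TMM and at 1.32 with total counts.

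Promoter windows of the human genes are shown for both members that were at least 1.5-fold higher, for HK2 and LDHA, where isoenzymes of a step differed, and for DLAT, which was lower. HK2, LDHA and DLAT were picked as examples. Isoenzymes of other steps differed too, and Pfkp, Aldoa, Pfkl and Ogdh were also at least 1.5-fold lower. They are RefSeq windows of build GRCh38.p14 from 250 bases before to 50 after a start, read 5′ to 3′ on the gene's strand. The positions are chr14:24094061-24094360 (+ strand) for PCK2, chr2:208254409-208254708 (- strand) for IDH1, chr2:74834920-74835219 (+ strand) for HK2, chr11:18394313-18394612 (+ strand) for LDHA and chr11:112025158-112025457 (+ strand) for DLAT. Capitals mark each match, on either strand, to ACGTG or to TGATGNAA. ACGTG is a form of the core that hypoxia-inducible factors bind, and other forms were not searched for. TGATGNAA is the composite element that ATF4 binds.
PCK2: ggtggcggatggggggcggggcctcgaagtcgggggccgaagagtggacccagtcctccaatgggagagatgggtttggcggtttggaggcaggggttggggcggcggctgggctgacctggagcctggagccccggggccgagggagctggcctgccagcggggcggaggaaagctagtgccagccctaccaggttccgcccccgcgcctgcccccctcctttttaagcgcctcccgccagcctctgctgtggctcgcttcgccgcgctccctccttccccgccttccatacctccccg
IDH1: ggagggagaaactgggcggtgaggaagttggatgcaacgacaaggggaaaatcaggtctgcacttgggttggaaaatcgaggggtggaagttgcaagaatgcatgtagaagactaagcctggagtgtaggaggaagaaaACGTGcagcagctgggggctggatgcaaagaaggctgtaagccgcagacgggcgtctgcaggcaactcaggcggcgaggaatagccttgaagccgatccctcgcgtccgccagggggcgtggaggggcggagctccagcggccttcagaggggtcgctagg
HK2: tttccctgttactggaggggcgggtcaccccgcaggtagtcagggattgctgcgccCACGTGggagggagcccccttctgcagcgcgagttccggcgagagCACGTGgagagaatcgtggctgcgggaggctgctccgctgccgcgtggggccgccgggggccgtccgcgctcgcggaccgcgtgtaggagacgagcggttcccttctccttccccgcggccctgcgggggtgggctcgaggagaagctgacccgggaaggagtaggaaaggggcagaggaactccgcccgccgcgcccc
LDHA: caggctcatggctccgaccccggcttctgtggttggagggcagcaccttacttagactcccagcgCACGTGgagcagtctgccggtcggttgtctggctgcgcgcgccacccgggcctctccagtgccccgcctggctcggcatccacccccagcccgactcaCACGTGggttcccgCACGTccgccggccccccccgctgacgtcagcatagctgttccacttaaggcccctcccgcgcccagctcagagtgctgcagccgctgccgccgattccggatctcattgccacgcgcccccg
DLAT: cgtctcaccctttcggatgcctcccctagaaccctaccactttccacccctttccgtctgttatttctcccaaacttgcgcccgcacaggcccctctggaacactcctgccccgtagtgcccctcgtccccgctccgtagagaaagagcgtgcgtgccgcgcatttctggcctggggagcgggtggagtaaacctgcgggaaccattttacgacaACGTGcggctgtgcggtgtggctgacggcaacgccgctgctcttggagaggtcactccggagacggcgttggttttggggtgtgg

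The PCK2 window held 0 matches to either motif, and neither of the 2 IDH1 windows held TGATGNAA. Of the 41 members with a window, HK1 alone held TGATGNAA, against 4.46% of all genes in the table. The letters ACGTG were found for 12 of 19 genes of glycolysis, 5 of 7 of pyruvate entry and 2 of 14 of the TCA cycle. The share of all genes was 24.9%. Counted per window the shares were 37.2% for glycolysis, 45.5% for pyruvate entry and 12.5% for the TCA cycle, against 21.4% of all windows, since a gene may have several. Where a gene has a pair of windows the one with more matches to ACGTG is shown. The LDHA window shown holds 5 matches and the other 0, the HK2 window shown holds 4 and the other 2, and the IDH1 window shown holds 1 and the other 0. Where CACGTG occurs, both strands match and the matches overlap. With TMM scaling the ratios of Hk2 and Ldha, the 2 genes with CACGTG in the window shown, differ in sign, as given below. With total gene-row counts both are above 0, at 1.21 for Hk2 and 0.61 for Ldha. A match is a description of the letters only.

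At the entry of glycolysis Slc2a1 and the hexokinases were close to the control. Slc2a1, for the transporter GLUT1, had 75.9 CPM with salubrinal and 68.4 CPM in the control (log2 ratio 0.15, interval 0.0045 to 0.30). Hk2, the hexokinase induced in many tumours, had 148 CPM with salubrinal and 123 CPM in the control (0.28, 0.17 to 0.38). Hk1, the hexokinase of most tissues, had 117 CPM with salubrinal and 128 CPM in the control (-0.12, -0.23 to -0.01). Hk2 thus stood above Hk1 by 0.40 on the log2 scale (0.24 to 0.55). Such a difference within a step compares 2 rows of the same libraries and does not depend on the scaling. It does depend on how reads fell on each row, which the intervals do not cover. Rows named as copies of the same gene could differ as well, such as Tpi-rs2 at -1.23 and Tpi-rs11 at -0.10. How much of a difference within a step comes from this was not tested. Slc2a3, for the glucose transporter GLUT3, is no member and was named after its values were seen. It had 416 counts (29.3 CPM) with salubrinal and 128 counts (14.7 CPM) in the control, a log2 ratio of 0.99 (0.71 to 1.29), just under 2-fold. Gpi1, which turns glucose 6-phosphate into fructose 6-phosphate, had a log2 ratio of -0.15 (-0.22 to -0.07).

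The 3 lowest ratios of the whole set lay at phosphofructokinase and aldolase. Phosphofructokinase commits sugar to glycolysis and has 3 subunit genes. Pfkp, the platelet type, had 459 counts (32.3 CPM) with salubrinal and 510 counts (58.6 CPM) in the control, a log2 ratio of -0.85 (-1.04 to -0.67). Pfkl, the liver type, had 20.7 CPM with salubrinal and 32.3 CPM in the control (-0.64, -0.88 to -0.40). Pfkm, the muscle type, had 132 CPM in each library (0.00, -0.11 to 0.11). It stood above Pfkp by 0.86 (0.64 to 1.07) and above Pfkl by 0.64 (0.37 to 0.90), while Pfkl and Pfkp differed by 0.22 with an interval of -0.09 to 0.52. Aldoa, for the aldolase that splits fructose bisphosphate, had 5592 counts (394 CPM) with salubrinal and 5576 counts (640 CPM) in the control, a log2 ratio of -0.70 (-0.75 to -0.65). Tpi1, which interconverts the triose phosphates, had 80.1 CPM with salubrinal and 117 CPM in the control (-0.54, -0.67 to -0.42).

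The 6 genes from Gapdh to Pkm had a median log2 ratio of 0.02, against -0.15 for the 9 measured genes from Slc2a1 to Tpi1. With copy rows added, as described below, these medians were -0.05 and -0.15. Both sets were cut after their values were seen. Pkm, for pyruvate kinase, had 12155 counts (856 CPM) with salubrinal and 6963 counts (799 CPM) in the control (0.10, 0.06 to 0.14). Pgk1, which forms ATP and 3-phosphoglycerate, stood at -0.05 (-0.16 to 0.05). Of the enolases, Eno1 stood at -0.20 (-0.31 to -0.09) and Eno2, known from neurons, at -0.30 (-0.38 to -0.21). On these rows they differed by 0.10 with an interval of -0.04 to 0.23, but with the rows named as copies of Eno1 added to it, Eno1 was above Eno2 by 0.24 (0.14 to 0.35). Gapdh and Pgam1, with few counts on their own rows, are described with their copies below.

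Of the 4 genes of lactate formation and transport, Ldha alone had an interval below 0 with TMM scaling. Ldha, the subunit that favours lactate formation, had 95.7 CPM with salubrinal and 120 CPM in the control (-0.33, -0.45 to -0.21). Ldhb, the subunit that favours pyruvate, had 102 CPM with salubrinal and 106 CPM in the control (-0.05, -0.17 to 0.07). Ldhb was thus above Ldha by 0.28 (0.11 to 0.45), and by 0.31 (0.16 to 0.46) with the copy rows of Ldha. The lactate transporter genes Slc16a1 (MCT1) and Slc16a3 (MCT4) stood at -0.07 (-0.19 to 0.05) and -0.35 (-0.85 to 0.14), the second from 80 counts with salubrinal and 63 in the control, and differed by 0.29 with an interval of -0.23 to 0.80.

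**Figure D2:**
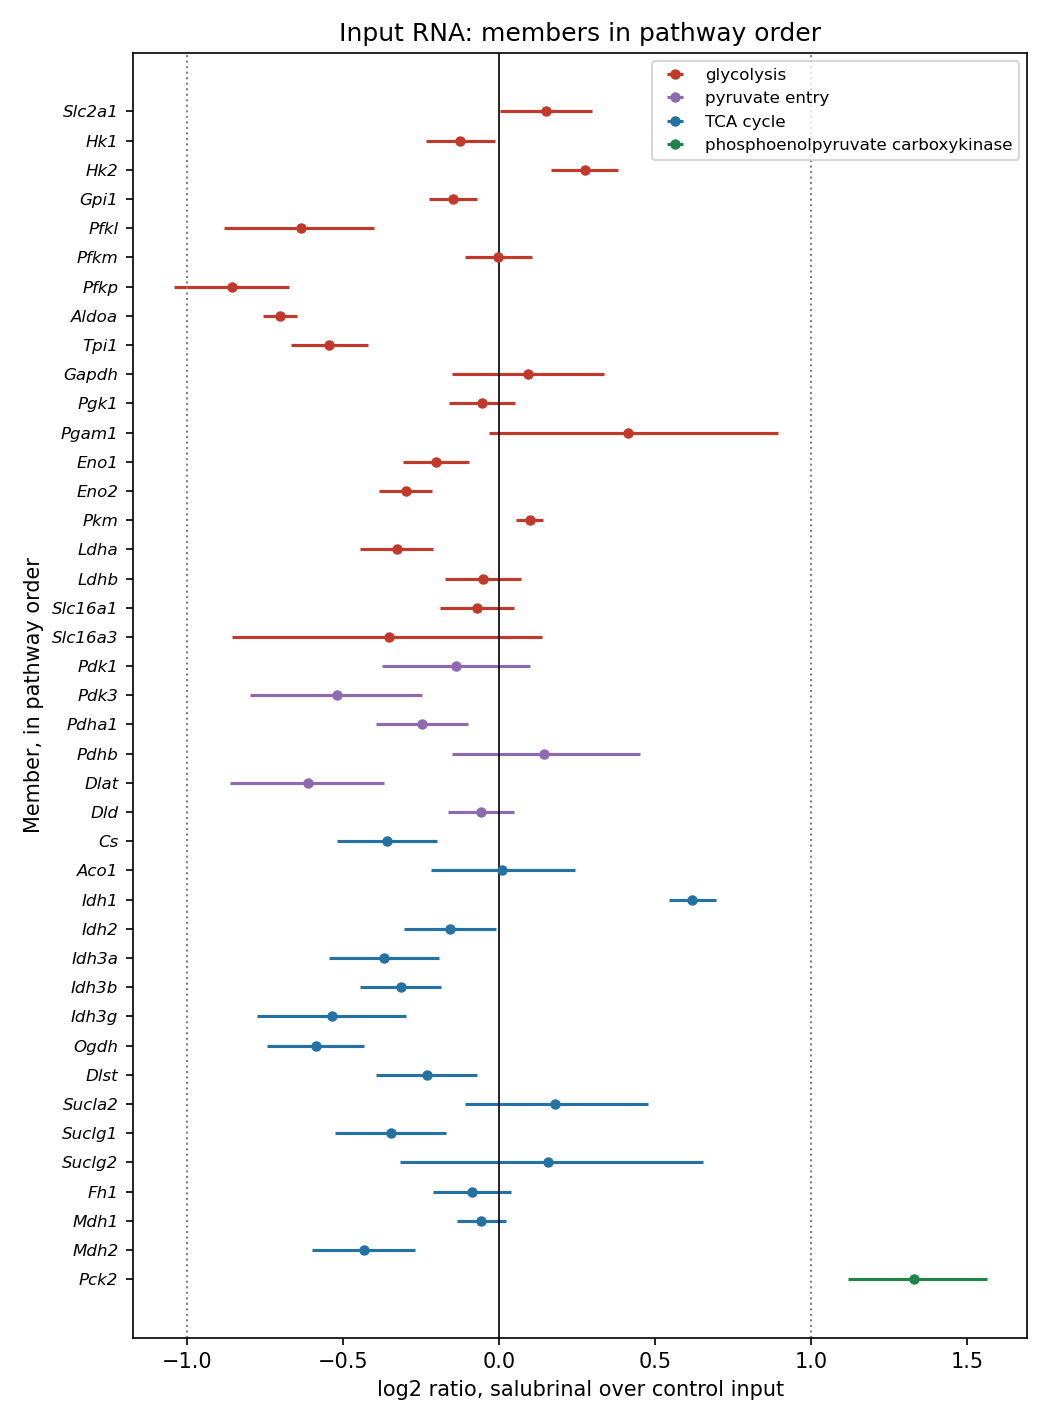
Log2 ratio of each measured member, salubrinal over control input (x axis), from glucose uptake at the top to Pck2 at the bottom (y axis); points are the ratios, bars are 95% intervals for counting error, colours are the classes and dotted lines mark 2-fold. Pfkp at -0.85 and Aldoa at -0.70 are the leftmost points, and Idh1 at 0.62 and Pck2 at 1.33 the rightmost.

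Reads of several glycolytic genes were spread over rows named as copies of them. Such rows were found for 7 members, all of glycolysis, by name (22 rows, chosen after the values were seen). Gapdh, for the dehydrogenase that oxidises glyceraldehyde 3-phosphate, had 386 counts with salubrinal and 222 in the control on its own row, while Gapdh-ps14 had 5701 with salubrinal and 3151 in the control. Copies thus held 93.7% of the summed Gapdh counts with salubrinal and 93.4% in the control. For Pgam1, for phosphoglycerate mutase, they held 88.8% with salubrinal and 92.7% in the control, and for Tpi1 63.9% with salubrinal and 63.1% in the control. For Eno1 they held 62.3% with salubrinal and 58.3% in the control, for Ldha 33.5% with salubrinal and 35.0% in the control, and for Aldoa 29.6% with salubrinal and 29.3% in the control. For Pgk1 they held 7 counts with salubrinal and 3 in the control. How the authors' counting treated reads that match several rows is not stated, so the split between a gene and its copies is uncertain.

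Summing the rows changed the sign for Pgam1 only among these 7. Its own row had 129 counts with salubrinal and 59 in the control and gave 0.41 (-0.03 to 0.89), the highest ratio among the members of glycolysis. With its copies the sum was 1147 counts with salubrinal and 809 in the control, and gave -0.20 (-0.33 to -0.07). Eno1 stood at -0.05 (-0.12 to 0.01) after summing, against -0.20 on its own row, with the row Eno1b at 0.04. Gapdh stood at 0.15 (0.09 to 0.21) after summing, against 0.09 (-0.15 to 0.34) on its own row. After summing, Aldoa stood at -0.69, Tpi1 at -0.51, Ldha at -0.36 and Pgk1 at -0.05, close to their own rows. The copy rows of Tpi1 ran from -1.23 for Tpi-rs2 to 0.00 for Tpi-rs8. The median of glycolysis was -0.12 with summed rows too.

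**Figure D3:**
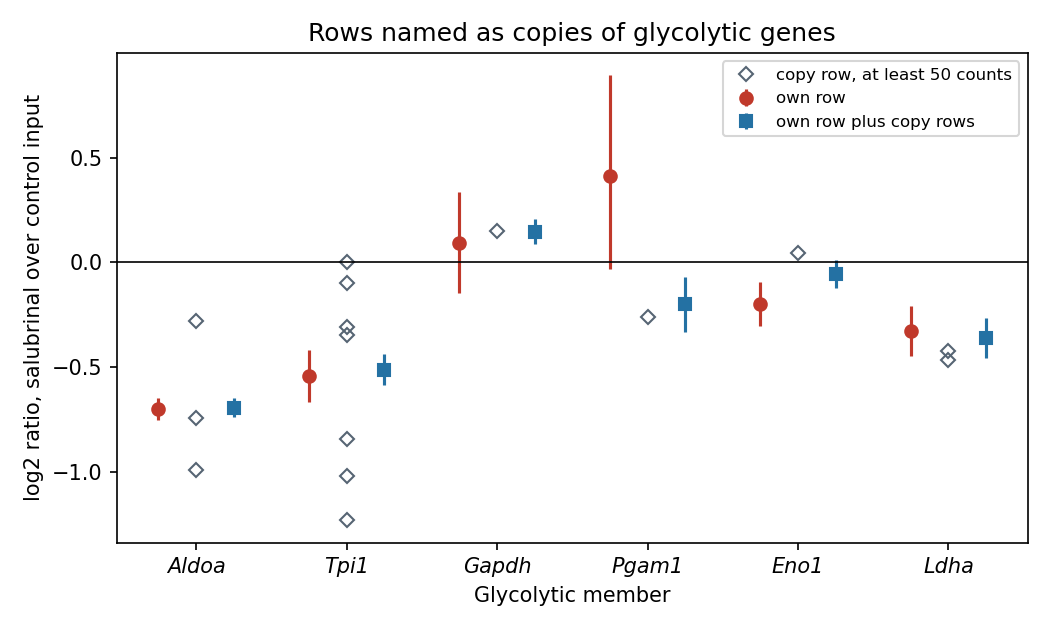
Log2 ratio, salubrinal over control input (y axis), of 6 glycolytic members (x axis) on their own row (circles), on each row named as a copy with at least 50 counts (open diamonds) and summed (squares); bars are 95% intervals for counting error. Pgam1 lies above 0 on its own row and below 0 when summed, and the copies of Tpi1 spread from -1.23 to 0.00.

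At pyruvate entry the subunits of one enzyme complex had different ratios. Dlat, the E2 core of the pyruvate dehydrogenase complex, had 282 counts (19.9 CPM) with salubrinal and 265 counts (30.4 CPM) in the control, a log2 ratio of -0.61 (-0.86 to -0.37). Pdha1, the E1 alpha subunit, had 62.9 CPM with salubrinal and 74.6 CPM in the control (-0.25, -0.39 to -0.10). Pdhb, the E1 beta subunit, had 18.3 CPM with salubrinal and 16.5 CPM in the control (0.15, -0.15 to 0.45). Dld, the E3 subunit that the oxoglutarate dehydrogenase complex also uses, had 132 CPM with salubrinal and 138 CPM in the control (-0.06, -0.16 to 0.05). Dlat was below all 3 others, by 0.37 from Pdha1 (0.08 to 0.66), 0.56 from Dld (0.29 to 0.83) and 0.76 from Pdhb (0.37 to 1.16).

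Of the kinases that switch the complex off, Pdk3 stood at -0.52 (-0.80 to -0.25) and Pdk1, known as a hypoxia target, at -0.14 (-0.38 to 0.10). Pdk1 was above Pdk3 by 0.38 (0.02 to 0.75). The row Pcx, for pyruvate carboxylase, had 463 counts with salubrinal and 322 in the control (-0.18, -0.39 to 0.03). With it the median of pyruvate entry was -0.18 over 7 genes.

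In the TCA cycle the mitochondrial enzymes mostly had ratios below 0, while the cytosolic isoenzymes lay near or above 0. The median was -0.33 over 12 mitochondrial members, 10 of them below 0. It was 0.01 over the 3 cytosolic ones, Idh1, Aco1 and Mdh1. The division by compartment was made after the values were seen. Cs, for citrate synthase, which starts the cycle, stood at -0.36 (-0.52 to -0.20). Aco1, the cytosolic aconitase that doubles as an iron-sensing RNA-binding protein, stood at 0.01 (-0.22 to 0.24).

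Isocitrate dehydrogenase showed the widest spread within a step. Against Idh1 at 0.62, the mitochondrial NADP-dependent enzyme Idh2 had 66.1 CPM with salubrinal and 73.7 CPM in the control (-0.16, -0.30 to -0.01). The NAD-dependent enzyme of the cycle proper has 3 subunit genes. Idh3b had 78.5 CPM with salubrinal and 97.6 CPM in the control (-0.31), Idh3a had 42.6 CPM with salubrinal and 55.0 CPM in the control (-0.37), and Idh3g had 21.8 CPM with salubrinal and 31.6 CPM in the control (-0.53). Idh1 was above Idh2 by 0.78 (0.61 to 0.94), above Idh3b by 0.93 (0.78 to 1.08), above Idh3a by 0.99 (0.80 to 1.18) and above Idh3g by 1.16 (0.90 to 1.41). The 3 Idh3 genes differed from each other by at most 0.22, each with an interval that includes 0.

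**Figure D4:**
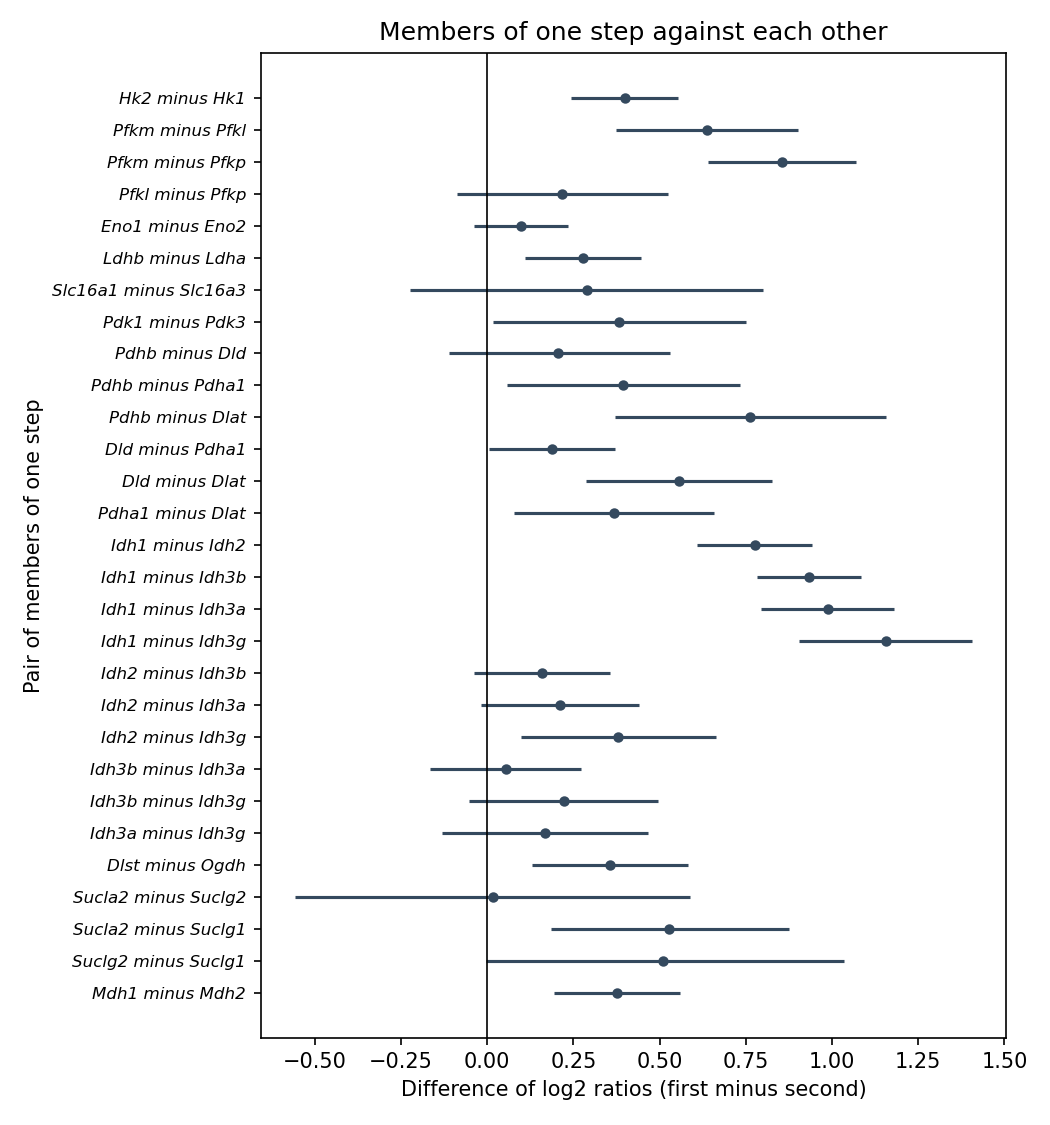
Difference of log2 ratios between members of one step (x axis) for 29 pairs in 11 steps (y axis), the higher member first so that all differences are above 0; points are differences and bars are 95% intervals for counting error. The 4 pairs with Idh1 and the pair of Pfkm and Pfkp lie farthest to the right, up to 1.16.

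In the oxoglutarate dehydrogenase complex the E1 subunit gene had a lower ratio than the E2 subunit gene. Ogdh, the E1 subunit, had 714 counts (50.3 CPM) with salubrinal and 658 counts (75.5 CPM) in the control, a log2 ratio of -0.59 (-0.74 to -0.43). Dlst, the E2 subunit, had 52.8 CPM with salubrinal and 62.0 CPM in the control (-0.23, -0.39 to -0.07). Dlst was above Ogdh by 0.36 (0.13 to 0.58). Of succinyl-CoA ligase, the shared alpha subunit gene Suclg1 stood at -0.35 (-0.53 to -0.17), and the beta subunit genes Sucla2 (ADP-forming) and Suclg2 (GDP-forming) at 0.18 (-0.11 to 0.48) and 0.16 (-0.32 to 0.66).

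Fh1, for fumarase, stood at -0.09 (-0.21 to 0.04). The mitochondrial malate dehydrogenase Mdh2 had 46.8 CPM with salubrinal and 63.3 CPM in the control (-0.43, -0.60 to -0.27). Its cytosolic counterpart Mdh1, part of the malate-aspartate shuttle, had 237 CPM with salubrinal and 247 CPM in the control (-0.06, -0.14 to 0.02). Mdh1 was above Mdh2 by 0.38 (0.19 to 0.56). In both isocitrate and malate dehydrogenase the cytosolic member had the higher ratio.

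**Figure D5:**
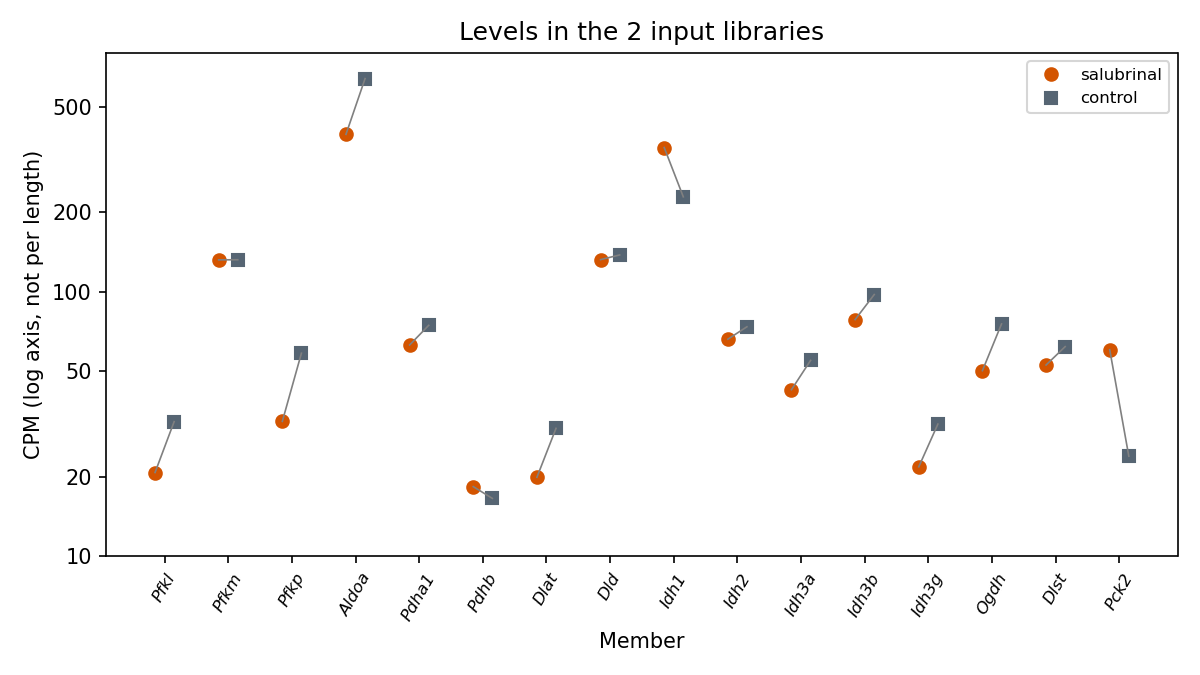
CPM on a log axis (y axis) of the 16 measured members of those steps that hold a member at least 1.5-fold apart (x axis), with salubrinal as circles at the left and control as squares at the right of each pair. CPM is not per length, so heights compare libraries and not genes; Pck2 has 60.4 CPM with salubrinal and 23.9 CPM in the control.

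Among other genes of these pathways, Me1, the cytosolic malic enzyme that makes NADPH, was at least 2-fold higher, with 349 counts with salubrinal and 106 in the control (1.00, 0.70 to 1.34). Slc25a10, a mitochondrial dicarboxylate carrier, was at least 2-fold lower, with 21 counts with salubrinal and 33 in the control (-1.26, -2.22 to -0.52). Of the 17 measured genes of the TCA cycle and anaplerosis outside the members, these were the 2 past 2-fold, and the median was -0.08. Of the 10 measured genes of glycolysis and lactate and the 7 of pyruvate entry outside the members, 0 were past 2-fold, and the medians were -0.01 and 0.01. At 1.5-fold 3 of the 10 were higher (Slc2a3, Pklr and Pgm2) and 0 of the 7 were, against 11.0% of all rows. Lower by at least 1.5-fold were 0 of the 10 and 0 of the 7, against 12.1% of all rows. Of the 17 genes of the TCA cycle and anaplerosis, 2 were at least 1.5-fold higher (Me1 and Got1), against 11.0% of all rows. At least 1.5-fold lower were 4 of the 17 (Slc25a10, Ogdhl, Slc25a11 and Slc25a1), against 12.1% of all rows.

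In the gradient fractions the same genes, under their human symbols, had too few counts for most tests. Outside ribosomal RNA rows the 4 fraction files of a library did not differ beyond sampling noise (chi-square per degree of freedom 0.937 to 1.03, p from 0.11 to 0.791). They were counted as 1 sample and summed, which gave 3 libraries per treatment. For this the control 40S files titled 1 and 2 were placed with replicates 2 and 1, since as titled the values were 1.23 and 1.47. Counts outside ribosomal RNA were 10098, 3734 and 73158 in the salubrinal libraries and 86125, 22499 and 93628 in the control libraries. The 43 rows held 234 counts in all, 0.0809% of these, with 63 in the salubrinal and 171 in the control libraries. The 63 and 171 are not scaled for depth, which was lower with salubrinal. Of the rows, 20 had 0 counts and 16 had 1 to 10. A row with 0 counts allows up to 3 counts (counting error only). This limit is 0.237 CPM of all 12632747 gene-row counts of these libraries, of which 289242 lay outside ribosomal RNA. Relative to counts outside ribosomal RNA the limit is 10.4 CPM, so 0 counts do not show that a gene was absent.

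HK2 was the 1 member row that passed the filter on low counts. It had 0, 1 and 14 counts in the salubrinal libraries, against 12, 7 and 9 in the control libraries. On library sizes that include ribosomal RNA rows it averaged 2.24 ± 2.05 CPM with salubrinal and 2.39 ± 1.62 CPM in the control (SD, n = 3 libraries each), a log2 fold change of 0.47 ± 0.52 (SE; edgeR quasi-likelihood test, adjusted p = 0.73), and the groups overlap. The fold change and the mean CPM differ in sign. Of all 913 rows tested, 5.7% passed. PC, for pyruvate carboxylase, had 0, 0 and 5 counts in the salubrinal libraries, against 15, 3 and 21 in the control libraries, and was below the filter. PCK2 had 0, 0 and 4 counts in the salubrinal libraries, against 0 in each control library. Without the filter, edgeR tested 23 member rows and called 0, with adjusted p = 0.634 for both PC and PCK2. PC, PCK2 and IDH1 had an unadjusted p under 0.05, as did 528 of all 10224 rows. IDH1 had 1, 0 and 2 counts in the salubrinal libraries, against 0 in each control library. DESeq2 gave 0 of these 23 rows an adjusted p, and 0 had an unadjusted p under 0.05. The labels do not state whether replicate libraries came from separate cultures, and the p-values then measure only the spread between these libraries, which may be technical.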

How the data were processed

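The deposited files give read counts per gene row, not normalized by the authors, for the inputs and gradient fractions of SK-MEL-28. A stranded total RNA kit was used, per the labels' protocols. The submitters' processing notes list HTSeq 0.5.3p3, SAMtools 0.1.19.24, STAR, FastQC 0.11.5 and DESeq, with build hg19, and no source used here gives their roles or the strand setting. Count lines without a gene name were removed, and gene rows held 7.06% of counts in the salubrinal and 5.94% in the control input. The members, the lists and the rule for named genes were chosen with earlier results of these data known. Values are given in full for members at least 1.5-fold apart with at least 50 counts and for the members of their steps. Other listed genes are named past 2-fold, and those past 1.5-fold are listed too. Intervals of a ratio are exact conditional binomial ones, and those of a difference between rows are exact conditional ones for an odds ratio (scipy 1.17.1). Summed gradient libraries were compared with the robust quasi-likelihood test of edgeR 4.0.16 under R 4.3.3 (low rows removed by filterByExpr, TMM scaling, Benjamini-Hochberg at 0.05) and DESeq2 1.42.0. The edgeR test alone was also run on simulated counts. These were made for rows that had passed the filter, so that run says nothing about rows below it. An SE was taken as the size of a log2 fold change over the normal quantile that its p gives. Alternatives were other scalings, prior count 0.5, minimums of 20 and 200 counts, other filters, a replicate block and leaving out each library. Added after the data were seen were sums with copy rows, the row Pcx and the TCA cycle sum without Idh1.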

Additional observations from a re-analysis of the deposited data

How the results depend on the processing

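The scaling of the 2 input libraries set the sign of most ratios. With total gene-row counts in place of TMM, the median log2 ratio was 0.82 for glycolysis, 0.74 for pyruvate entry and 0.71 for the TCA cycle, Pck2 stood at 2.27, and 10 members were at least 2-fold apart in place of 1. All 30 members below 0 with TMM were above 0 under it, among them Pfkl (0.30), Pfkp (0.084), Aldoa (0.24), Dlat (0.32) and Ogdh (0.35), but relative to the median of all rows no single gene moved by more than 0.015. Under RLE size factors, total counts without ribosomal RNA rows, prior count 0.5, the other count minimums, copy rows and the row Pcx, as far as each applies, the medians ran from -0.21 to -0.12 for glycolysis, from -0.28 to -0.18 for pyruvate entry and from -0.32 to -0.23 for the TCA cycle, Pck2 ran from 1.25 to 1.34, and 1 member was past 2-fold. With copy rows Pgam1 turned from 0.41 to -0.20 and the median from Gapdh to Pkm from 0.02 to -0.053, and Eno1 stood above Eno2 by 0.24 in place of 0.10. Without Idh1 the summed counts of the TCA cycle gave -0.22 in place of -0.02. Differences within a step do not depend on scaling, but they do depend on how reads fell on each row. In the gradient libraries 0 member rows were called under every alternative, leaving out each library (0 to 0) included. With the filter on low counts, edgeR tested at most 2 of the 43 member rows under any of them. These runs therefore cannot show whether the result is stable for the members. DESeq2 gave member rows no adjusted p. Without ribosomal RNA rows and with files summed as titled, 0 member rows were tested. With no filter on low counts, 3 of 23 member rows had an unadjusted p under 0.05 by edgeR, against 528 of all 10224 rows. The replicate block, with 1 member row tested, called 0 as well. Over all rows edgeR called 52 of 913, against 24 with the replicate block, 0 with library sizes alone, 18 of 10224 by DESeq2, 4 with no filter on low counts, 91 without ribosomal RNA rows, 89 with files summed as titled, and 8 to 117 with each library left out, so the share of rows called is itself unsettled. Deviations of libraries with the same number correlated at -0.02, 0.17 and 0.32, so the numbers were not taken as pairs.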
